A study of Homo sapiens with 4 samples.

Results

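A set of 2200 TBX3-bound sites in the open stretches between genes was examined in 501mel cells, an established human melanoma line. Each site is a peak summit that the ChIP replicate 1 list annotates as intergenic, outside any named repeat, and more than 50 kb but at most 250 kb from the nearest transcription start site (TSS). Each also had a mutually nearest summit within 200 bp on the same sequence in the ChIP replicate 2 list. The sites are 9.69% (95% Wilson interval 9.31% to 10.1%) of the 22702 regions found in both lists, which held 32479 and 40494 summits. The rule used annotation, position and the presence of a partner, and no score.

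The study profiled the genome binding of TBX3-3xHA, TBX3 carrying 3 copies of the HA epitope, by chromatin immunoprecipitation and sequencing (ChIP-seq) with an anti-HA antibody. There were 4 samples, 2 of ChIP and 2 of input chromatin, all from 501mel cells grown in the same medium, with no other treatment named in the labels. The labels do not say whether the replicates came from separate cultures, nor how the tagged protein was brought into the cells. A peak list was analysed for each ChIP sample, the input samples were not analysed here, and the read depth behind the lists is unknown.

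TBX3 belongs to the T-box transcription factors, named after the DNA-binding domain it shares with Brachyury. T-box proteins bind short DNA sequences built around the core GTGTGA and can repress or activate transcription, often from enhancers far from the gene they act on. Pigment cells depend on such distant elements at several genes, KIT and MITF among them. The gene nearest to a distal site need not be the one it acts on, so the genes named below give locations only. Intervals in parentheses are 95% Wilson intervals, which cover counting error alone, and positions are on build hg38. With a single ChIP condition, and sites that share the same libraries, no test between groups of sites was run.

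The only base sequence at hand for these sites was that of RefSeq promoter windows (GRCh38.p14), each running from 250 bases before to 50 bases after an annotated start site. Of the 2053 sites on sequences that the table of windows covers, 23 had their replicate 1 summit inside such a window, although the deposited annotation puts every one of them over 50 kb from a start site. The windows of 4 of them, those of the sites with the lowest sum of score ranks on the chromosomes considered, are printed 5′ to 3′ on the strand of the transcript, with the 21 bases centred on the replicate 1 summit in capitals. All belong to long non-coding RNAs (lncRNAs). They are shown because they place highly ranked distal sites directly at transcript starts that the deposited annotation lacks. The windows were chosen after the values had been seen. The first, chr10:6987629-6987928 on the minus strand, starts LOC105376387 and holds the site annotated to SNORD129. The second, chr11:15843495-15843794 on the plus strand, starts LOC107984370 and holds the site annotated to MIR6073. The third, chr15:48006191-48006490 on the minus strand, starts LOC107984792 and holds a site annotated to the pigmentation gene SLC24A5. The fourth, chr10:61821083-61821382 on the minus strand, starts LINC02625 and holds the site annotated to ARID5B.
LOC105376387: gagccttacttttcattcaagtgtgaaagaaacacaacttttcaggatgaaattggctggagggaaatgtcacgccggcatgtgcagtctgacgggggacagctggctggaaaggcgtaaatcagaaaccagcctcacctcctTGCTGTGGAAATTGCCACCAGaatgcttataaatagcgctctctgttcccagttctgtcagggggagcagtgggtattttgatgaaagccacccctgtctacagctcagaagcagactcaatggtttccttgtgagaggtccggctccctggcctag
LOC107984370: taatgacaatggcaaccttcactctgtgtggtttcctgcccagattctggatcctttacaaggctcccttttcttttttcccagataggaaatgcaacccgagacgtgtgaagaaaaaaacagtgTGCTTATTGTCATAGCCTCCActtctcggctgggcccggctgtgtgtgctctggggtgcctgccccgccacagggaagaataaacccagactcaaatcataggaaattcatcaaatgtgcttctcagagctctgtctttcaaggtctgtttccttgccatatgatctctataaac
LOC107984792: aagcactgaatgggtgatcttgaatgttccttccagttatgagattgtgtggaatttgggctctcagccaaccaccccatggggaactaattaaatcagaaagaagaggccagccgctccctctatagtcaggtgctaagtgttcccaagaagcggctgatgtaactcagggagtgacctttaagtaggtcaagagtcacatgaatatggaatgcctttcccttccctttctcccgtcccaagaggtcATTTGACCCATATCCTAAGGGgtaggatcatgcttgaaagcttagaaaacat
LINC02625: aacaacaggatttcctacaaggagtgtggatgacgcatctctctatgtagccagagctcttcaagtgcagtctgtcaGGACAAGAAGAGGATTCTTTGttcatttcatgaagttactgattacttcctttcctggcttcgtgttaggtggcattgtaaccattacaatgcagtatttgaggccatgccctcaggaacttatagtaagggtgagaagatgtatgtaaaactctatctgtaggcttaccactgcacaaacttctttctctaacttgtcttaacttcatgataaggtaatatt

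The site at the LOC105376387 start had scores of 389.5 in replicate 1 and 573.7 in replicate 2, ranks 111 and 75.5 of the lists, and its summits lay 1 bp apart. The site at LOC107984370 scored 248.4 and 488.1, ranks 360 and 159.5. At LOC107984792 the scores were 126.8 and 207.6, and the replicate 1 summit lay 8 bp into the transcript. The site at LINC02625 scored 135.4 and 179.2, and its replicate 1 summit lay 163 bp before the start used for the printed window. The nearest annotated start of LINC02625 was 122 bp from this summit. All 4 sites were therefore within the upper ranks of both lists. The score is the value the authors deposited for each peak, on a scale the files do not name, and it is used only to rank sites within a list.

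Short motifs were searched on both strands of the 23 windows, and each count is given beside its share of all 35116 windows of the table and of the 403 windows that held the summit of any shared region. The T-box core GTGTGA, a search added after the values were seen, was in 4 of the 23 (17.4%), beside 12.0% and 21.6%. It is in the printed windows of LOC105376387 and LOC107984370. The longer forms GGTGTGA, which contains the core, and AGGTGTGA, which contains both, were in 0 of the 23, beside 3.45% and 7.20% for GGTGTGA and 0.980% and 2.48% for AGGTGTGA. The E-box CACGTG, bound by MITF and related factors, was in 0 of the 23, beside 7.26% and 17.6%, and its variant CATGTG was in 5 (21.7%), beside 11.1% and 20.1%. The AP-1 motif TGANTCA was in 7 (30.4%), beside 7.71% and 14.6%, and the SOX motif AACAAT in 6 (26.1%), beside 10.1% and 11.4%. GGAATG, a TEAD motif, was in 5 (21.7%), beside 14.0% and 17.9%, and TGTGGT, a RUNX motif, also in 5, beside 13.1% and 19.1%. A further 21 windows held a summit of a non-repeat intergenic site within 50 kb. Of these 21, TGANTCA was in 5 (23.8%), AACAAT in 4 (19.0%), GGAATG in 6 (28.6%) and TGTGGT in 3 (14.3%). GTGTGA was in 7 (33.3%), GGTGTGA in 4 (19.0%), AGGTGTGA in 1 (4.76%), CACGTG in 4 (19.0%) and CATGTG in 5 (23.8%). These are matches of letters in a small number of windows, and the sequence under the other sites was not used here.

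In replicate 1, 3066 summits met the rule on annotation and distance, 9.44% of the list, and 2200 of them (71.8%, 70.1% to 73.3%) had a partner in replicate 2. In replicate 2, 3876 summits met the rule, 9.57% of the list, and 2170 (56.0%, 54.4% to 57.5%) had a partner. The share of each list that met the rule was thus close in the replicates, 9.51% ± 0.0932 (SD, n = 2), while the share with a partner was 63.9% ± 11.2 (SD, n = 2). Non-repeat intergenic summits nearer to genes, within 50 kb, had a partner in 70.8% and 57.5% of cases, and those beyond 250 kb in 73.2% and 55.6%. The differences between distance bands were smaller than the difference between the replicates.

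Among the distal summits the share with a partner rose with the score. In replicate 1 it was 21.0% in the lowest score decile of the list and 98.8% in the highest, and in replicate 2 it was 10.3% and 99.2%. The plot of partner share by score decile shows the distal sites together with the nearer and the more remote intergenic ones.

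**Figure D1:**
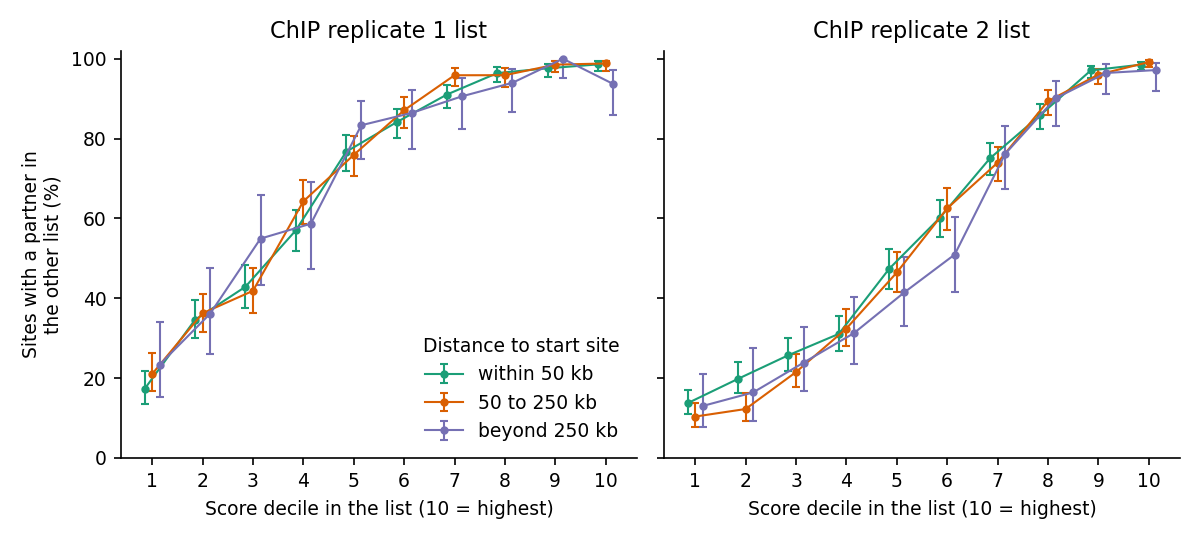
Share of non-repeat intergenic summits that had a partner within 200 bp in the other list (vertical axis, %) against the score decile in their own list (horizontal axis, 10 is highest), for each ChIP replicate; points are colored by distance to the nearest start site and bars are 95% Wilson intervals. For sites at 50 to 250 kb the share runs from 21.0% to 98.8% in replicate 1 and from 10.3% to 99.2% in replicate 2, and the curves of the 3 distance bands lie close together.

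The 2 summits of a site lay a median of 31 bp apart, 67.8% of pairs were within 50 bp and 32 pairs were at the same base. Position was more closely shared at higher scores: the median gap was 64 bp in the lowest replicate 1 decile and 19 bp in the highest. The same gene was nearest in both lists at 99.7% of sites, and 2099 of the 2200 also met the whole rule by the annotation of replicate 2. At the pairing limit, the sites nearest MPEG1 and PRNP were inside with a gap of 199 bp, and pairs nearest CDC7 and LINC01524 were outside with 203 bp.

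The distal sites spanned nearly the whole range of scores. In replicate 1 the median score was 20.2 (quartiles 10.2 and 45.1, range 2.30 to 789.3), and in replicate 2 it was 32.1 (15.6 and 75.7, range 2.07 to 805.6). Expressed as a percentile of the whole list, ties averaged, the median site stood at 64.9 in replicate 1 and 72.9 in replicate 2. The highest decile of the list held 331 sites (15.0%, 13.6% to 16.6%) in replicate 1 and 468 (21.3%, 19.6% to 23.0%) in replicate 2. All shared regions together had 14.1% and 17.6% there, non-repeat intergenic sites within 50 kb had 16.2% and 21.0%, and those beyond 250 kb had 12.6% and 17.3%. The lowest decile held 58 (2.64%) and 45 (2.05%) of the distal sites. A partner was part of the rule and was more frequent at high scores, so all shared regions also stood above the middle of their lists, at medians of 63.6 and 70.5.

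The scores of the replicates ranked the sites alike, with a Spearman's rho of 0.870 over the 2200 sites, given as a description since all sites share the same pair of libraries. The percentile was higher in replicate 2 at 75.0% of sites, beside 67.0% of all shared regions. Non-repeat intergenic sites within 50 kb and beyond 250 kb had 71.1% and 77.3%. The median change was 4.88 percentile points (quartiles 0.00236 and 14.8), beside 3.63 over all shared regions, 4.71 within 50 kb and 6.43 beyond 250 kb. The replicate 2 list is the longer one, and the part of list length in this change was not tested. The plot of percentiles in the 2 replicates shows the spread narrowing toward high scores.

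**Figure D2:**
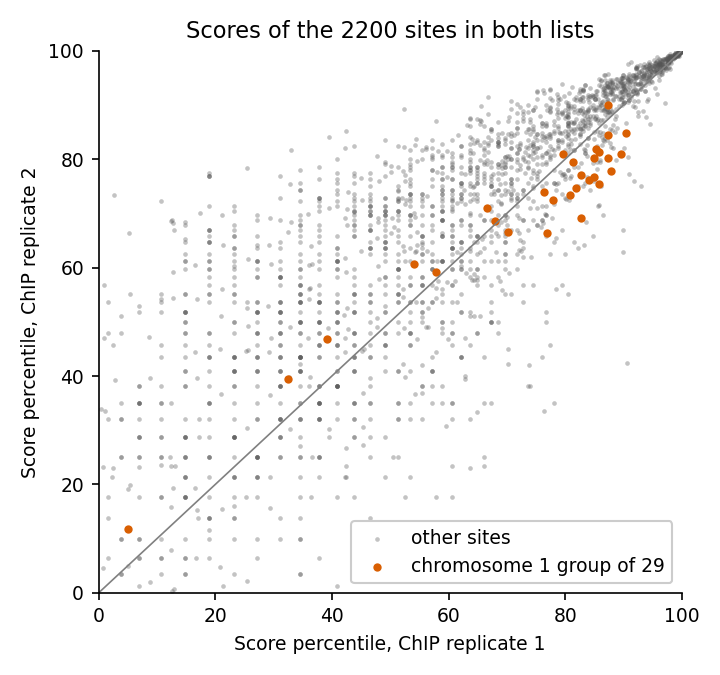
Score percentile of each of the 2200 sites within the ChIP replicate 1 list (horizontal axis) and the ChIP replicate 2 list (vertical axis); the line marks equal percentiles and orange points are the 29 sites of the dense group on chromosome 1. Of the sites, 75.0% lie above the line, while 20 of the 29 orange points lie below it.

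The sites with the largest rise of percentile from replicate 1 to replicate 2 were nearest PODXL, which encodes a cell-surface sialomucin (2.59 to 73.4), LINC00844 (10.7 to 72.2) and LINC01921 (5.22 to 66.3). The largest falls were nearest JADE1, which encodes a subunit of histone acetyltransferase complexes (61.5 to 7.82), the pseudogene FAM86DP (57.2 to 6.42) and CYP24A1, the enzyme that inactivates vitamin D (90.6 to 42.4). The 6 were picked for a large change, which by itself keeps a site out of the highest decile of at least 1 list. Apart from the CYP24A1 site, each stood at a percentile of 10.7 or less in its lower list. Those changes thus involve a score that was low in that list.

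The 15 sites that ranked highest when both score ranks were summed lay on 11 chromosomes, and 13 of them were in the top 100 of both lists. Their summits were a median of 18 bp and at most 50 bp apart. Of the 15, 6 were nearest a protein-coding gene, 6 an ncRNA, 2 a small nucleolar RNA and 1 a pseudogene, and 5 lay upstream of the start site.

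The first was nearest HEY1, a transcriptional repressor and target of Notch signalling: it lies 73425 bp downstream of the HEY1 start on chromosome 8 at 79693050 and ranked 1 in replicate 1 (score 789.3) and 1.5 in replicate 2 (805.6). DRAM1, which promotes autophagy downstream of p53, had a site 58984 bp downstream on chromosome 12 at 101936311 (661.8 and 805.6), with summits 4 bp apart. A site 104725 bp upstream of the uncharacterized LOC100192426 scored 654.0 and 740.9. The site 168268 bp downstream of the start of COL1A2-AS1, an antisense RNA of a type I collagen gene, scored 548.2 and 728.9. The site nearest the pseudogene SPATA31D5P, 86625 bp upstream, scored 593.7 and 652.7. These 5 held ranks of 35 or better in both lists.

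Next came a site 52330 bp downstream of MIR4778 (464.3 and 647.7) and one 230295 bp upstream of AGAP1, which encodes a GTPase-activating protein of endosomal traffic (498.7 and 596.2). SNORD17 (506.0 and 570.0), the lncRNA PCAT1 (442.0 and 610.5) and the intracellular chloride channel gene CLIC5 (440.2 and 571.8) followed. The remaining 5 were nearest BASP1, which encodes a membrane-bound signalling protein of neurons (411.3 and 606.7), LINC01376 (418.4 and 564.1), LOC101927480 (413.0 and 558.3), SNORD129 (389.5 and 573.7) and the sorting nexin gene SNX13 (350.7 and 632.0). Only SNORD129 and SNX13 were outside the top 100 of a list, in both cases that of replicate 1, at ranks 111 and 152.5. By the newer RefSeq annotation the summits at DRAM1, PCAT1, LINC01376 and SNORD129 lay inside a gene span, in each case that of a pseudogene or an lncRNA.

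Sites became fewer with distance. The step from 50 to 75 kb held 608 sites and the step from 225 to 250 kb held 74, and the median distance was 101195 bp. Upstream of the start site lay 1205 sites (54.8%, 52.7% to 56.8%). In the 25 kb steps the upstream share was 59.9% (55.9% to 63.7%) at 50 to 75 kb and 41.9% (31.3% to 53.3%) at 225 to 250 kb. Within 50 kb the upstream share of non-repeat intergenic sites was 71.2%, and beyond 250 kb it was 45.6%. The length of intergenic sequence on either side of the start sites was not measured here. The median percentile showed no ordered course over the steps, lying between 60.6 and 69.6 in replicate 1 and between 70.5 and 77.8 in replicate 2.

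**Figure D3:**
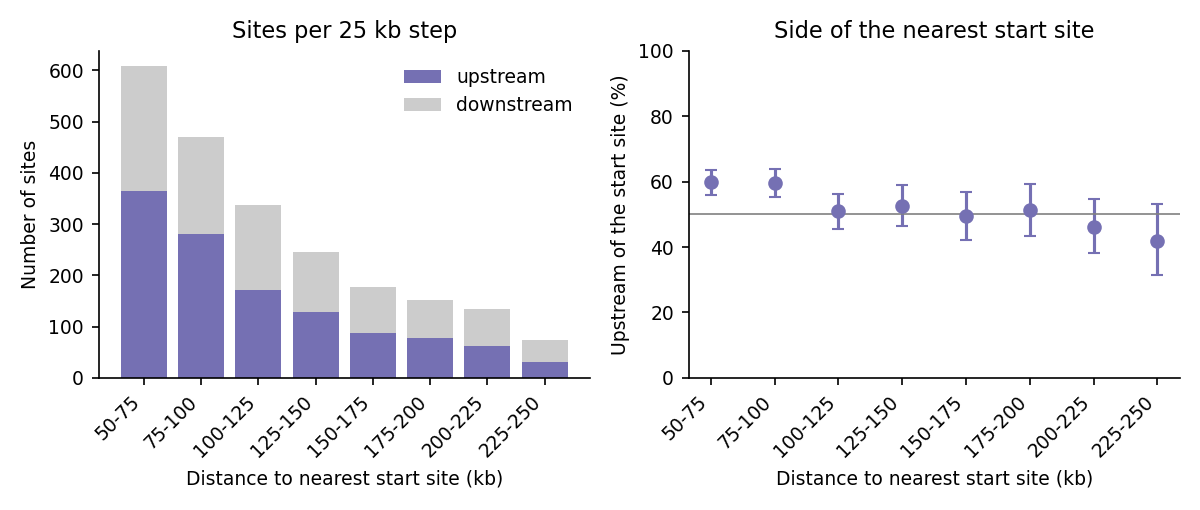
Left, number of sites in each 25 kb step of distance to the nearest start site, split into upstream and downstream. Right, share of sites upstream (%) in the same steps with 95% Wilson intervals; the grey line marks 50%. Counts fall from 608 to 74, and the upstream share is 59.9% in the nearest step and 41.9% in the farthest.

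At the lower distance limit the nearest sites inside were at ERVFRD-1 (50036 bp upstream, scores 14.9 and 50.0) and KCNE4 (50092 bp downstream, 5.12 and 14.8). Just outside were SYT6 (49967 bp upstream, 71.4 and 109.6) and LINC02364 (49831 bp downstream, 19.8 and 77.9). At the upper limit LINC02172 (249170 bp downstream, 27.0 and 34.3) and TET2 (248713 bp upstream, 7.82 and 20.2) were inside, and BMPER (250065 bp upstream, 10.8 and 13.9) and CBLB (250375 bp upstream, 29.0 and 39.7) outside.

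Many distal sites stood near each other. Another site of the set lay within 50 kb of 1070 of the 2200 (48.6%, 46.6% to 50.7%). The share with a neighbour of the same band was 41.0% among the 2577 non-repeat intergenic sites within 50 kb of a start and 43.2% among the 585 beyond 250 kb. These bands differ in width and in number of sites, and the part of both in these shares was not tested. A shared region of any class lay within 50 kb of 65.8% (63.8% to 67.8%), compared with 68.0% (66.2% to 69.8%) in the nearer band and 54.4% (50.3% to 58.4%) in the farther one. Joining sites at 50 kb or less gave 1531 groups, of which 1130 held a single site and 15 held 6 or more, 130 sites in all.

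The largest group was on chromosome 1 between 143187003 and 143275835, where 29 sites lay within 88.8 kb with a median spacing of 2184 bp. All are annotated to LOC645166, a pseudogene 146757 to 235589 bp away, and lie on the long arm beside the large heterochromatic block next to the centromere, a stretch rich in duplicated sequence where short reads can be hard to place. Their scores ran from 3.47 to 73.8 (median 41.3) in replicate 1 and from 4.60 to 89.1 (median 35.8) in replicate 2. Unlike the other sites, 20 of the 29 (69.0%) had a lower percentile in replicate 2, compared with 529 of the other 2171 (24.4%), and the group's median fell from 81.9 to 75.4. Of the 29, 1 was in the highest decile of replicate 1 and 0 were in that of replicate 2. Copy number and the share of uniquely placed reads at this locus were not measured here, and their part in these values was not tested.

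The second group held 12 sites over 174.9 kb on chromosome 8 (29490671 to 29665544), 9 nearest LINC00589 and 3 nearest DUSP4, a phosphatase that switches off ERK. Its highest site, at 29665544, scored 290.4 and 412.3 (ranks 254 and 269). On chromosome 7, 9 sites nearest LOC730338 stretched over 161.0 kb, and the highest, at 46814805, scored 237.3 and 361.9. A group of 9 on chromosome 1 (219685966 to 219812733) was nearest ZC3H11B and SLC30A10, the latter a manganese exporter. C10orf126 had 8 sites within 93.6 kb on chromosome 10, the highest at 28897942 with scores of 238.6 and 414.5. Unlike the chromosome 1 group at LOC645166, each of these had sites in the highest decile of both lists.

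Among protein-coding genes, VAPA, which tethers lipid-transfer proteins to the endoplasmic reticulum, had 7 sites 121528 to 208495 bp downstream, the highest scoring 175.7 and 275.1. PHLDA1, a gene induced by growth factors, had 7 sites 53609 to 194744 bp downstream, with scores between 17.5 and 87.2 in replicate 1 and between 23.0 and 89.1 in replicate 2. CLDN23, a claudin of tight junctions, had 7, of which 6 lay upstream, and the highest scored 89.5 and 173.1. GRB10, an adaptor that restrains insulin receptor signalling, had 7, all upstream, the highest scoring 43.8 and 78.5. NCK2, an adaptor between receptor tyrosine kinases and actin, had the highest-ranked site among the groups of 6, with scores of 321.2 and 540.2 at 82885 bp downstream. It falls outside the rule for named genes and was chosen after its values were seen.

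The sites were unevenly spread over chromosomes. Chromosome 20 had 1.35 sites per Mb, chromosome 1 had 0.992 and all chromosomes together 0.722, taking the end of the last annotated gene as the length. Chromosome 19, the most gene-dense, had 4 sites (0.0683 per Mb), chromosome 17 had 18 (0.216) and the X chromosome 37 (0.237). As a share of each chromosome's shared regions the set made up 14.7% (12.6% to 17.1%) on chromosome 8 and 1.85% (0.722% to 4.66%) on chromosome 19. Chromosome 20 was also highest for non-repeat intergenic sites within 50 kb, at 1.59 per Mb, and for shared regions of any class, at 14.1 per Mb. The chromosome copy numbers of this line were not analysed here, and their part in these densities was not tested.

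**Figure D4:**
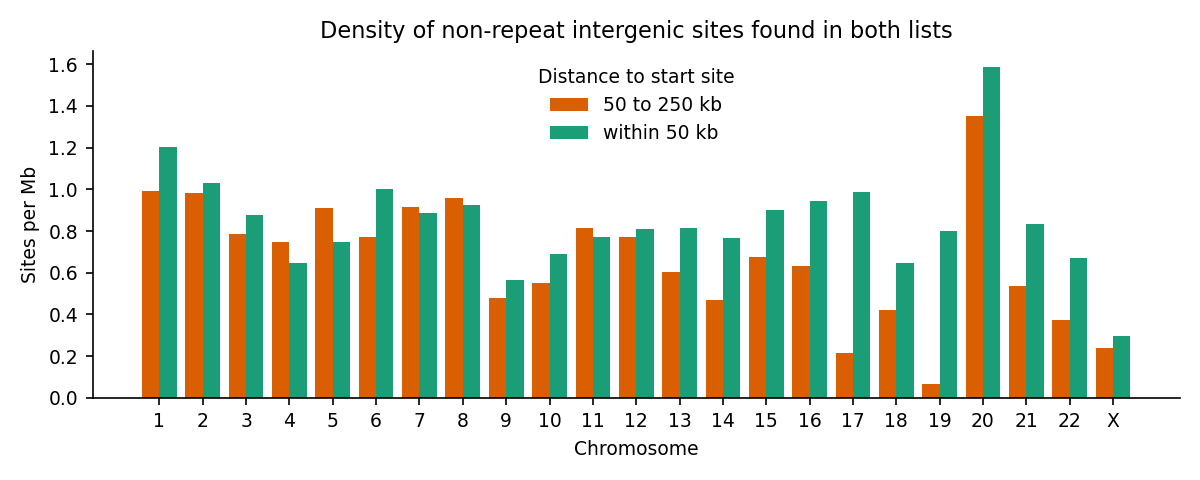
Non-repeat intergenic sites found in both lists per Mb of each chromosome (vertical axis), for sites at 50 to 250 kb (orange) and within 50 kb (green) of the nearest start site. Chromosome 20 has the tallest bars of both kinds (1.35 and 1.59 per Mb), while on chromosome 19 the distal sites reach 0.0683 per Mb.

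The deposited annotation names 1394 genes as nearest to the sites. Of the 2200 sites, 1257 (57.1%) were nearest a protein-coding gene, 811 (36.9%) an ncRNA and 110 (5.00%) a pseudogene. The protein-coding share was 64.7% within 50 kb and 46.5% beyond 250 kb. Most genes, 947 (67.9%), had a single site, and 73 had 4 or more.

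The newer RefSeq gene table (GRCh38.p14) places 439 of the 2200 intergenic sites (20.0%, 18.3% to 21.7%) inside an lncRNA gene, 90 (4.09%) inside a protein-coding gene and 1621 (73.7%) in no gene. Of non-repeat intergenic sites within 50 kb and beyond 250 kb, 15.1% and 22.6% lay inside an lncRNA gene. For distances to newer start sites, those on chromosome 8 and on further sequences without start sites in the annotation used were left out, which leaves 2053 sites. Of the 2053, 63 (3.07%, 2.41% to 3.91%) had a start site of the newer annotation within 1 kb, 60 of them of lncRNAs, 237 (11.5%) had one within 10 kb, and 755 (36.8%) within 50 kb. The share within 1 kb was 2.63% in the nearer band and 1.61% in the farther one. "Intergenic" and "distal" are thus properties of the annotation used. The 63 sites close to a start had 14 members (22.2%, 13.7% to 33.9%) in the highest decile of replicate 1, compared with 14.5% of the other 1990, and 25.4% compared with 20.7% in replicate 2. The interval of the 63 sites in replicate 1 includes the share of the others.

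Protein-coding starts within 1 kb were those of NCOA1, PTP4A1 and LOC105370706, and the sites of this paragraph were chosen after their values were seen. NCOA1 encodes a coactivator of nuclear receptors: its site at 24490854 on chromosome 2 lies 93623 bp upstream of the deposited start, 400 bp from a start of the newer annotation, and scored 44.4 and 51.1. PTP4A1, a phosphatase gene, had a low-scoring site (8.54 and 10.6) 14 bp from a newer start. The NCOA1 site was also among 9 sites whose detailed annotation was CpG island. The other CpG sites were nearest SCARB1, FAM86EP, JMJD1C, FAM161A, FAM183A, LINC01101, SNORD155 and GLI2, and the highest of them, at SCARB1, the receptor for high-density lipoprotein, scored 95.5 and 156.2.

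Gene lists relevant to pigment cells and to TBX3 were then read against the whole genome. Of 19974 protein-coding genes in the gene table, 798 (4.00%) were nearest to at least 1 of the sites. Of the 303 genes on 10 lists, 51 (16.8%, 13.0% to 21.5%) were, with 88 sites between them. Part of the setting differs between these groups: 60.7% of the listed genes stood over 100 kb from the next protein-coding gene on at least 1 side, compared with 23.7% of all protein-coding genes. The median gap was 195.5 kb for the listed genes and 30.6 kb for all protein-coding genes. Among genes with a gap of over 100 kb, 14.4% of all 4735 and 25.5% of the 184 listed had a site. The size of the gap was not matched beyond this limit, and its part in these shares was not tested. The median percentile of the 88 sites was 62.1 in replicate 1 and 78.3 in replicate 2, beside 64.9 and 72.9 for all 2200. The lists were written with results of these data known, so these shares are descriptions only.

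Of the 34 pigmentation genes, 4 had a distal site (11.8%), beside 4.00% of all protein-coding genes. Among the 14 with a gap of over 100 kb, 3 had one (21.4%), beside 14.4% of all such genes. KIT, the receptor for stem cell factor on which melanoblasts depend, had 6, all 88470 to 185370 bp downstream of its start on chromosome 4. The highest-ranked, at 54784366, scored 288.3 in replicate 1 and 454.5 in replicate 2 (ranks 260 and 200), with summits 40 bp apart, and lay inside the lncRNA gene LOC105377657. The outermost, at 54843298, scored 305.7 and 354.3 (ranks 220.5 and 380). The other 4, at 54746398, 54769996, 54781938 and 54838475, scored between 10.8 and 42.8 in replicate 1 and between 48.8 and 116.7 in replicate 2. Near the KIT start itself there was no shared region within 10 kb and 1 between 10 and 50 kb. The shared regions assigned to KIT thus lay almost wholly in the distal band, which held 8 of its 9 regions of any class. This was not particular to KIT: the distal band also held 8 of 9 at UNC5C and EFNA5, and 8 of 8 at VAPA and CLDN23.

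SLC24A5, an ion exchanger of the melanosome, had 4 sites 80583 to 133296 bp upstream. Their replicate 1 scores were 11.6, 42.8, 126.8 and 86.9 from the farthest to the nearest, and their replicate 2 scores were 6.91, 58.3, 207.6 and 94.5. All 4 lay inside the lncRNA gene LOC124900354, and the strongest is the one at the LOC107984792 start printed above. Unlike KIT, SLC24A5 also had 2 shared regions within 10 kb and 4 between 10 and 50 kb. EDN3, the ligand of the melanoblast receptor EDNRB, had 1 distal site (10.3 and 20.4). LYST, which regulates the size of lysosomes and melanosomes, had 1 (10.0 and 16.5).

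Of 17 T-box genes, TBX3 itself and TBX15 had distal sites (11.8%). They are 2 of the 11 with a gap of over 100 kb (18.2%), beside 14.4% of all such genes. TBX3 had 4 sites, all upstream. The site at 114769780 on chromosome 12, 85616 bp away, scored 114.1 and 188.9, and the one at 114764740, inside TBX3-AS1, scored 41.3 and 101.3. The other 2, at 95333 and 198604 bp, scored 10.8 and 15.8 in replicate 1 and 11.4 and 11.5 in replicate 2. The TBX3 sites thus fell into 2 in the upper ranks of both lists, with percentiles of 81.9 to 96.5, and 2 near the middle, at 43.5 to 57.9. TBX15 had 2 (13.2 and 7.82 in replicate 1, 10.6 and 18.3 in replicate 2).

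Of 23 transcription factors of melanocytes and phenotype switching, 5 had a site (21.7%). Among the 17 with a gap of over 100 kb, 4 had one (23.5%), beside 14.4% of all such genes. ETV5, an ETS factor downstream of ERK, had 1 at 63932 bp downstream (67.2 and 137.9), and SNAI2, a repressor required in the melanocyte lineage, had 1 at 71717 bp downstream (44.0 and 113.8). IRF4, which cooperates with MITF at the tyrosinase gene, had 1 at 83278 bp downstream (21.1 and 87.4). MITF, the central regulator of pigment genes, had 2 upstream, with scores of 13.9 and 36.9 at 63036 bp and of 8.54 and 3.11 at 67566 bp. MITF had 23 shared regions in all, 7 within 10 kb and 13 between 10 and 50 kb, so most of its regions lay nearer than the distal band. ETV1 was the fifth.

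Of 24 Notch pathway genes, 3 had a site (12.5%), beside 4.00% of all protein-coding genes. Among the 8 with a gap of over 100 kb, 2 had one, beside 14.4% of all such genes. HEY1 had a second site close to the first, at 79695095, with scores of 162.0 and 314.8. RBPJ, the DNA-binding partner of Notch, had 1 scoring 64.8 and 123.8 at 80216 bp upstream of its deposited start, which the newer table places within the RBPJ gene. The receptor gene NOTCH2 had 1 (14.9 and 30.0).

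Of 36 genes of SOX and forkhead factors, 4 had a site (11.1%), beside 4.00% of all protein-coding genes. Among the 25 with a gap of over 100 kb, 4 had one, a share close to the 14.4% of all such genes. None of the 4 was a SOX gene, and this absence was not tested. FOXP1 had 3, the highest 131261 bp downstream (84.3 and 194.9). FOXB1 (40.6 and 68.3), FOXQ1 (18.1 and 21.2) and FOXN3 (12.4 and 22.1) had 1 each.

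Of 20 classical cadherins, which join cells by calcium-dependent adhesion, 3 had a site (15.0%). Among the 15 with a gap of over 100 kb, 3 had one (20.0%), beside 14.4% of all such genes. CDH5, the endothelial cadherin, had 3 upstream, the highest scoring 67.1 and 134.5 at 134968 bp. CDH6 had 4, 2 on each side of its start, the highest scoring 48.5 and 102.7 at 153980 bp downstream. CDH4 had 1, low in both lists (7.12 and 10.6).

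Of 39 axon guidance genes, whose receptors and ligands also steer neural crest cells, 10 had a site (25.6%). In this list 82.1% of genes had a gap of over 100 kb. Of those 32, 10 had a site (31.25%), beside 14.4% of all such genes. The ephrin receptor EPHA3 had 3 upstream, the highest scoring 94.9 and 185.5 at 63900 bp, and EPHA4 had 2 upstream (59.1 and 129.6 at 236172 bp, 33.1 and 79.8 at 67459 bp). The semaphorin SEMA3C had 2 upstream, at 189560 bp (80.4 and 159.3) and 233477 bp (67.7 and 97.2). SEMA6A had 1, with a lower rank in replicate 2 (31.0 and 27.0, ranks 7795 and 12628). The others were NRP1, NRP2, UNC5C, SEMA3E, PLXNA2 and EFNA5. The median percentile of the 16 axon guidance sites was 50.0 in replicate 1 and 71.6 in replicate 2.

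Of 36 genes of TGF-beta and BMP signalling, 7 had a site (19.4%). With a gap of over 100 kb it was 6 of 22 (27.3%), beside 14.4% of all such genes. The highest was nearest ID4, an inhibitor of basic helix-loop-helix factors induced by BMP, at 59165 bp downstream (213.2 and 390.5, ranks 488.5 and 319.5). A second ID4 site, at 55098 bp, stood lower (16.1 and 40.2). The signal transducers SMAD2 (172.6 and 240.6) and SMAD4 (90.4 and 128.2) and the inhibitory SMAD6 (141.1 and 189.2) each had 1. The first ID4 site and the SMAD sites were in the highest decile in both lists, and the sites of BMP4, GDF10 and INHBA were lower.

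Of 43 Wnt pathway genes, 4 had a site: WNT11, a ligand (54.1 and 92.9), the frizzled receptors FZD7 (24.4 and 69.6) and FZD1 (17.5 and 33.2), and the antagonist DKK2 (24.0 and 21.1). That is 9.30% of the list, and 4 of its 17 genes with a gap of over 100 kb (23.5%), beside the 14.4% of all such genes.

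Of 31 genes of growth factor signalling and MAPK feedback, 9 had a site (29.0%, 16.1% to 46.6%). These are 9 of the 23 with a gap of over 100 kb (39.1%), beside 14.4% of all such genes. SPRY1, a feedback inhibitor of receptor tyrosine kinases, had 4 downstream, of which the one at 79521 bp scored 128.2 and 212.4. DUSP4 had 3 upstream, scoring 79.1, 16.6 and 7.85 in replicate 1 and 251.6, 34.3 and 24.7 in replicate 2 from the nearest to the farthest. The receptor genes FGFR2 (highest 66.5 and 102.7) and NTRK2 (46.2 and 83.7) followed, and SPRED2, FGF1, DUSP5, DUSP6 and ETS1 completed the list. The map of sites around 6 listed genes shows KIT, SLC24A5, TBX3, SPRY1, DUSP4 and CDH6.

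**Figure D5:**
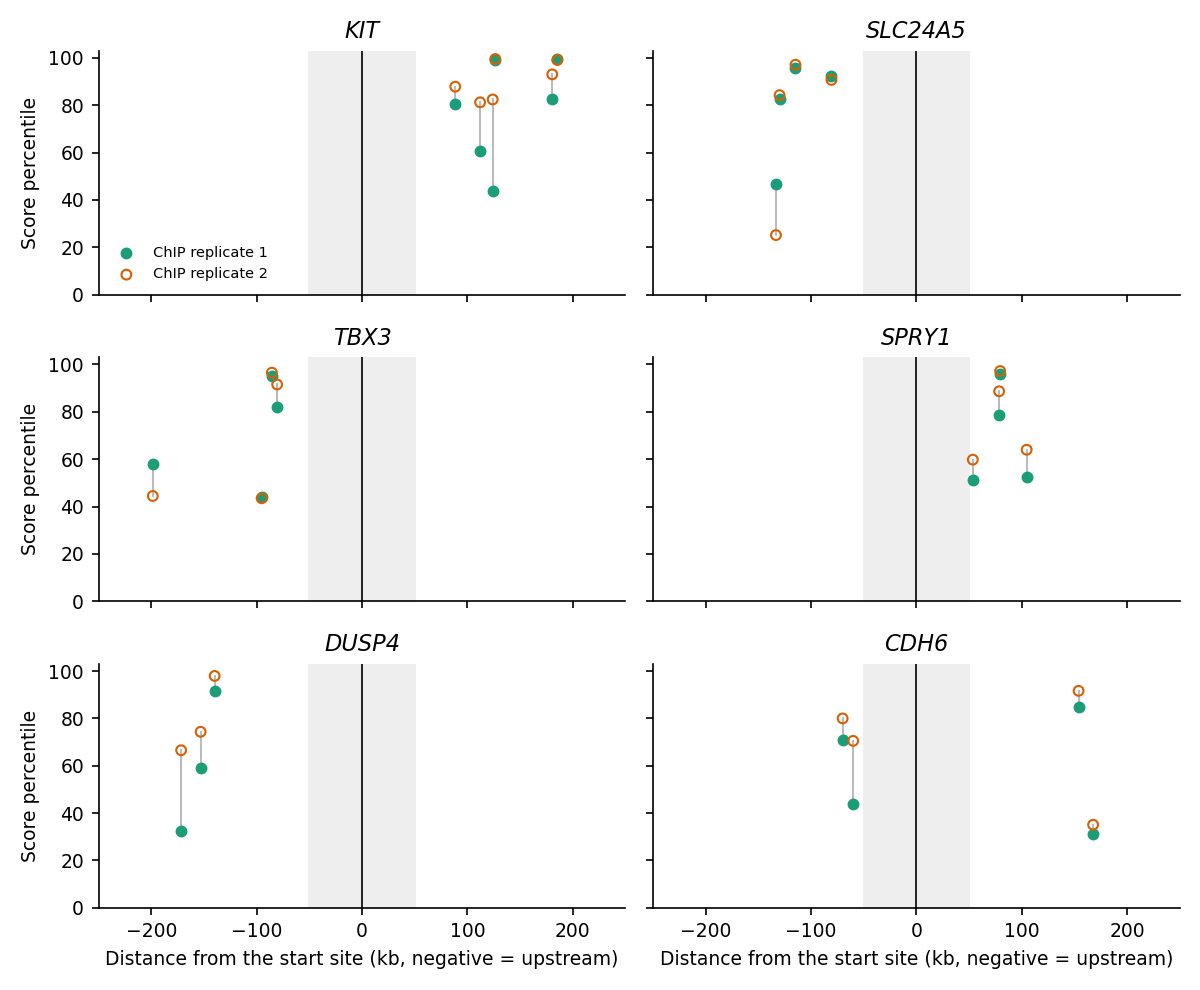
Score percentile (vertical axis) of each distal site against its distance from the start site of its nearest gene (horizontal axis, kb, negative is upstream), for 6 listed genes chosen after their values were seen; filled points are ChIP replicate 1, open points replicate 2, and the grey band is the excluded 50 kb on either side. The 6 KIT sites lie downstream, the SLC24A5, TBX3 and DUSP4 sites upstream, and CDH6 has 2 on each side.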

How the data were processed

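Chromatin from 501mel cells was profiled in 4 samples, 2 immunoprecipitated with anti-HA antibody and 2 input; groups and replicate numbers came from the sample titles. Per the file headers, each deposited list was made by annotating the peak summits of a single sample with HOMER's annotatePeaks.pl against hg38. The submitters' processing notes name FastQC 0.11.7, cutadapt 2.8, Bowtie2 2.3.5, MACS2 2.1.2 and SAMtools 1.9, with no role or order; the control and threshold of peak calling are not given in the sources used here. The authors deposited a score for each peak, on a scale the headers do not name, and was used only within its list. Positions, distances, nearest genes and annotation classes are as deposited. Read depth is unknown.

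Computed here, with Python 3.11.15, pandas 2.3.3, numpy 2.4.6 and scipy 1.17.1, were the pairing of mutually nearest summits within 200 bp, ranks and percentiles within a list (ties averaged), Wilson intervals, groups joined at 50 kb and the position of summits in RefSeq GRCh38.p14 genes and promoter windows. Entrez identifiers of 2181 of the 2200 sites (99.1%) matched the gene table. Nearest genes and the rule for sites come from the replicate 1 list. The pairing code was checked on simulated summits spaced far apart, with partners placed inside the 200 bp limit. That check does not measure pairing errors where real summits stand close together or at the limit. A genome sequence was not used here, so the planned motif search in windows around summits was replaced by promoter windows.

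The members and lists were chosen with earlier results of these data known. The text names the 15 sites with the lowest sum of ranks, the 8 genes with the most sites, the best 4 genes of each list, the sites at each limit and the 3 largest changes of percentile in each direction. Alternatives covered pairing distance, score limits, the annotation used, distance limits and joining distance. The lists were T-box, pigmentation, melanocyte transcription factors, Notch, SOX and forkhead, cadherins, axon guidance, TGF-beta and BMP, Wnt, and growth factor and MAPK feedback.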

Additional observations from a re-analysis of the deposited data

How the results depend on the processing

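Of 112 values recomputed under other settings, 70 stayed within the limit set for them, 42 moved and 0 reversed sign. A reversal was recorded only for the median change of score percentile, so the 0 says nothing of the other values. The limit was 1.5 times for counts of sites or genes and the error or replicate SD otherwise, a wide 11.2 points for partner shares. Partner shares were computed alike under the annotation alternatives, so there they count as unchanged by construction. The cause of the moves was not tested, except that score limits, closer pairing and the distance limit remove sites by construction. Pairing within 50 bp gave 9.20% of shared regions, partner shares of 48.7% and 38.4%, a replicate 1 percentile of 70.7, a rho of 0.891 and 38.0% with a neighbour; within 500 bp the neighbour share was 51.1%. Pairing at the same base left 32 sites (10.9% of shared regions) with 31 nearest genes, partner shares of 1.04% and 0.826%, percentiles of 76.1 and 80.6, a rho of 0.848, a change of 2.65 and 0% with a neighbour. Scores at or above the list median left 1437 sites, partner shares of 89.3% and 69.8%, percentiles of 78.1 and 83.6, a rho of 0.855, a change of 3.54 and 39.0% with a neighbour. The 5000 highest scores of each list left 455 sites (11.3%) with 384 genes, partner shares of 86.8% and 81.3%, percentiles of 93.4 and 95.4, a change of 1.51 and 21.8% with a neighbour. Requiring both annotations gave 9.25% of shared regions. A lower limit of 100 kb left 1121 sites (4.94%) with 730 genes, 50.0% upstream. Neighbours within 10 kb were found for 24.7% and within 100 kb for 57.8%. Each list alone, without pairing, gave 3066 to 3876 sites. Leaving out the chromosome 1 group, an alternative chosen after seeing the data, left the 8 values recomputed within these limits. Motif windows of other sizes or centres were not run. No paired analysis was possible because every result is a description within the ChIP group, with no test between groups, and no values of the input samples were at hand. Precision is limited by unknown depth and by 2 replicates.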
